A study of Mus musculus with 18 samples.

Results

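ATP-binding cassette (ABC) transporters are membrane proteins that bind and hydrolyse ATP to move drugs, lipids, porphyrins, nucleotides and conjugated metabolites across a membrane. The data describe 9 of their genes, chosen by name because they are known from blood stem cells or red cell precursors: Abcg2, Abcb1a, Abcb1b, Abcb6, Abcb10, Abcc1, Abcc4, Abcc5 and Abcg1. They are 9 of 53458 annotated genes, and 9 of 9 passed the filter on low counts that left 21565 genes for testing. RNA was sequenced from 3 bone marrow populations sorted from C57BL/6 mice. Each population came from Ptbp1 -/- animals (KO) and from Ptbp1 fl/fl animals (WT), whose gene carries loxP sites. PTBP1 is an RNA-binding protein that controls splicing. The gate for hematopoietic stem cells (HSC) was CD150+ and CD48- within Lin-, c-kit+ and Sca-1+ marrow. PreMegE denotes a progenitor that can form megakaryocytes or red cells, and preCFU-E a later one committed to the red cell line. Each of the 6 groups held 3 libraries, which the labels call biological replicates. The labels name neither the Cre line that removed Ptbp1, nor the animals' age, nor whether animals were pooled.

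The stem cell members are known as efflux pumps. ABCG2 expels the Hoechst dye, which gives stem cells their "side population" appearance in flow cytometry, and it also exports heme and protoporphyrin. P-glycoprotein, the classical multidrug pump, is encoded in mice by the neighbouring genes Abcb1a and Abcb1b. Among the red cell members, ABCB10 sits in the inner mitochondrial membrane and is needed for heme synthesis in erythroid cells, and ABCB6 binds porphyrins. ABCC1, ABCC4 and ABCC5 belong to the multidrug resistance protein family and carry glutathione conjugates, cyclic nucleotides and related anions. ABCG1 passes cholesterol to lipoprotein particles.

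Libraries held 15956408 to 29226287 estimated reads. Ptbp1, the targeted gene, was at 90.2 to 107.6 CPM (a gene's reads scaled to library size, with TMM factors) in HSC KO libraries against 195.7 to 220.6 CPM in HSC WT libraries, and at 297.4 to 317.5 CPM in preCFU-E KO libraries against 1115 to 1344 CPM in preCFU-E WT libraries. The HSC marker list summed to 660 to 930 CPM in HSC KO and 967 to 976 CPM in HSC WT, and the erythroid list summed to 6377 to 6724 CPM in preCFU-E KO and 5534 to 6974 CPM in preCFU-E WT. In preMegE the megakaryocyte list summed to 113 to 161 CPM in KO and 191 to 234 CPM in WT, below its 471 to 556 CPM in HSC KO and 512 to 588 CPM in HSC WT. The T and NK cell list summed to 224 to 259 CPM in preMegE KO and 204 to 275 CPM in preMegE WT, and to at most 44.5 CPM in HSC and preCFU-E libraries. Nkg7 made 219 to 257 CPM of it in preMegE KO and 203 to 274 CPM in preMegE WT, while Cd3e reached at most 1.75 CPM in preMegE. The part of either list in the comparisons with preMegE was not tested. HSC replicate 2 of the KO stood apart on the third principal component, at -80.8 against -8.4 to 26 in the other 17 libraries. On the second component preCFU-E KO replicate 1 was at 18, against 26.3 to 32.6 in the other preCFU-E libraries. Mitochondrial rRNA made up 28.8%, 27.05% and 12.67% of reads in preCFU-E KO and 17.28%, 14.29% and 19.36% in preCFU-E WT. The part of these differences in the results was not tested. Xist, which is transcribed from an inactive X, stood at 9121 to 10510 CPM (on total reads) in all 6 HSC libraries and at most 1.17 CPM in the 12 progenitor libraries, whose Eif2s3y, a gene of the Y chromosome, was at 40.0 to 69.2 CPM. Population and sex therefore cannot be told apart in any comparison of HSC with a progenitor. In bulk RNA, fewer cells of a type and less RNA per cell cannot be told apart either.

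Between Ptbp1 KO and WT cells, Abcg2 in HSC was the only one of the 9 transporter genes called in any population. By edgeR's quasi-likelihood test at an adjusted p below 0.05, 1 of 9 genes was called in HSC (Abcg2, lower in KO), where 0.844% of all tested genes were called and 0.459% were called lower. In preMegE 0 of 9 were called, against 0.0603% of all genes. In preCFU-E 0 of 9 were called, against 0.153% of all genes. At an unadjusted p below 0.05 the counts were 2, 1 and 2 of 9 in HSC, preMegE and preCFU-E, where 13.7%, 4.91% and 3.68% of all genes passed. DESeq2 called 1, 0 and 1 of the 9, and 666, 60 and 78 genes in all. The median log2 change of the 9 genes was -0.08 in HSC and -0.12 in preMegE, against 0.01 in each over all tested genes. In preCFU-E, where Abcb1a had no reads, the log2 changes of the other genes ran from -0.54 to 0.76.

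**Figure D1:**
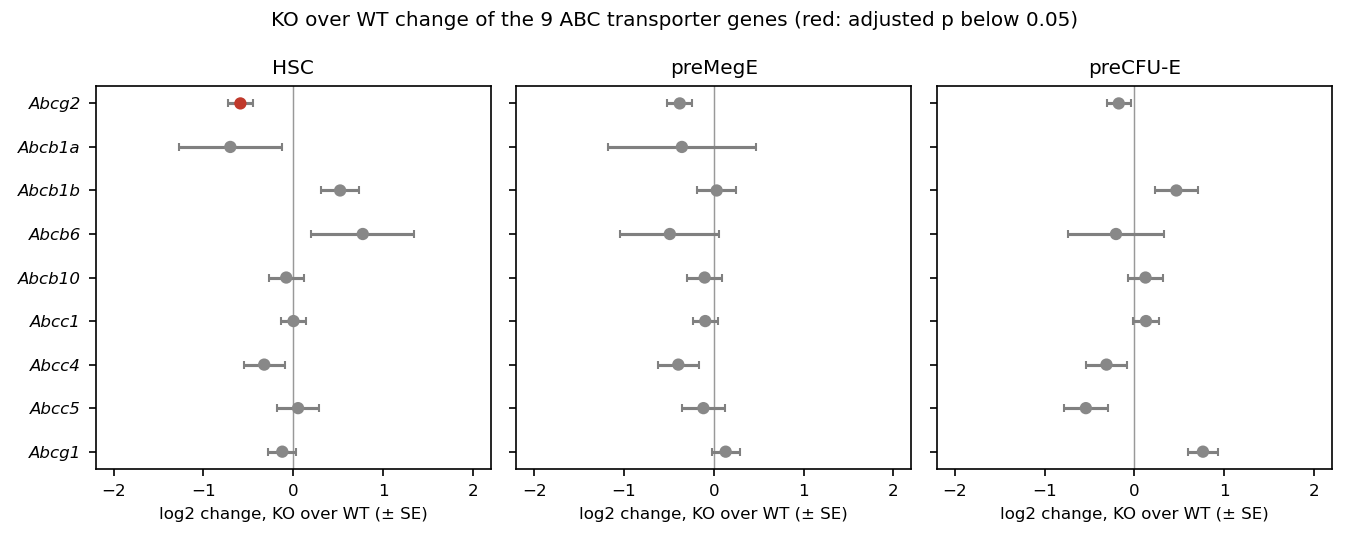
The log2 change of KO over WT with its SE is drawn for each of the 9 genes in HSC, preMegE and preCFU-E, from edgeR's fit of 18 libraries. Abcg2 in HSC, at -0.59, is the only point with an adjusted p below 0.05. Abcb1a is not drawn in preCFU-E, where no library held a read of it.

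More of these genes differed between populations than between genotypes. Between WT preMegE and WT HSC, 7 of 9 were called (4 higher, 3 lower in preMegE), against 53.7% of all tested genes (25.5% higher, 28.2% lower). Between WT preCFU-E and WT preMegE, 6 of 9 were called (2 higher, 4 lower in preCFU-E), against 26.8% of all genes (15.6% higher, 11.2% lower). Between WT preCFU-E and WT HSC, 6 of 9 were called (3 higher, 3 lower in preCFU-E), against 71.4% (29.6% higher, 41.8% lower). Over all genes the median log2 change at these steps was -0.43, -0.18 and -0.88, and with RLE size factors it was -0.50, -0.16 and -0.93, so a gene that kept its share of the library stood above the median gene. The medians of the 9 genes were 0.19, -0.16 and -0.15.

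**Figure D2:**
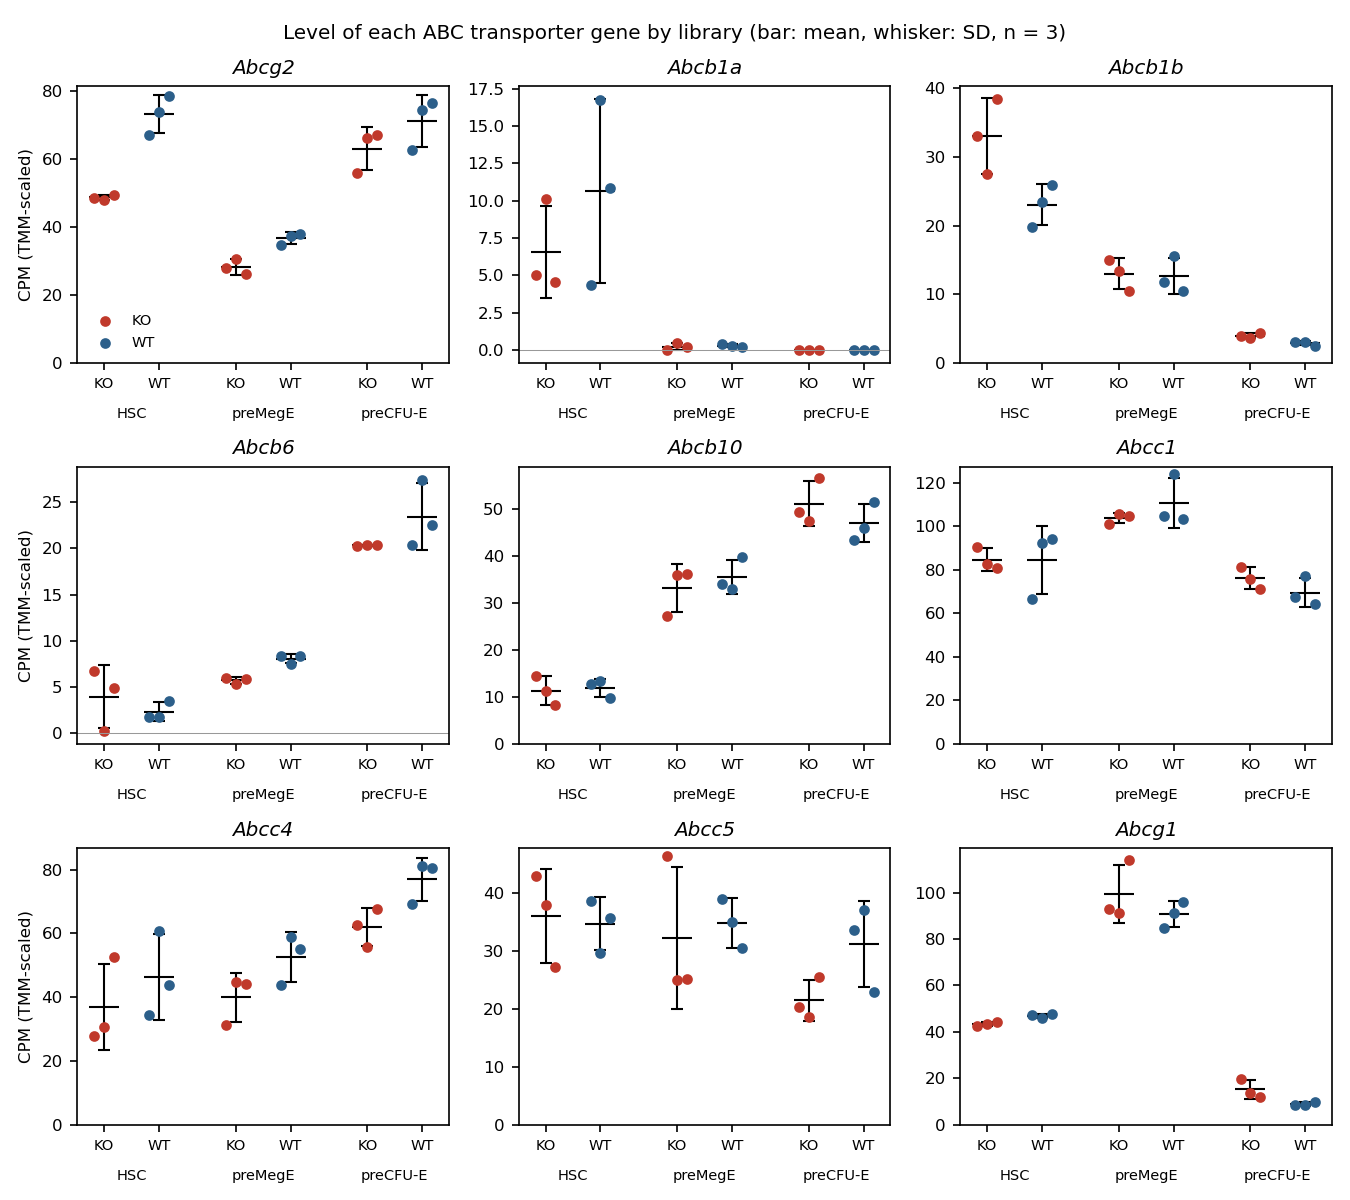
The level of each gene is drawn for every library in CPM on TMM-scaled library sizes, with KO left of WT in each population and bars for the mean and SD of 3 libraries. Abcg2 dips and Abcg1 peaks in preMegE, Abcb1a and Abcb1b are highest in HSC, and Abcb6 and Abcb10 are highest in preCFU-E.

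Abcg2 lies on chromosome 6 (chr6:58584523-58695676 on the plus strand, GRCm38). Its level was lower in HSC of KO mice and had a valley in preMegE in both genotypes. In HSC, the KO libraries held 48.5, 48.1 and 49.6 CPM and the WT libraries 67.3, 74.0 and 78.6 CPM. No KO library reached the lowest WT library, and the KO libraries differed from each other by less than 2 CPM. The log2 change was -0.59 ± 0.14 (SE), a 1.50-fold lower level, with an adjusted p of 0.0411 from edgeR. In preMegE, the KO libraries held 28.0, 30.7 and 26.0 CPM and the WT libraries 34.7, 37.4 and 38.0 CPM. These groups did not overlap either, but the log2 change of -0.38 ± 0.14 had an adjusted p of 0.902 from edgeR. The share of all genes whose KO and WT libraries separate in this way is not given here. Non-overlap, for this gene and those below, is thus a description and not a result. PreCFU-E libraries held 55.9, 66.2 and 67.3 CPM in KO and 62.6, 74.4 and 76.7 CPM in WT, and there the ranges overlapped. The KO effect in preCFU-E minus that in HSC was 0.41 ± 0.19 on the log2 scale, with an adjusted p of 0.618 from edgeR, so a difference in effect between populations was not shown.

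The HSC call of Abcg2 sat close to the threshold. The test of Abcg2 used a spread shared by all 6 groups, not that of the HSC libraries alone. Its adjusted p was above 0.05 with RLE size factors (0.0566), without the filter on low counts (0.0706), with length-scaled counts (0.197), with the replicate number as a block (0.0694) and in a fit of the HSC libraries alone (0.659), while DESeq2 gave 0.00186. It was also above 0.05 without WT replicate 1 (0.0521), WT replicate 2 (0.0909), WT replicate 3 (0.130), KO replicate 1 (0.0527) or KO replicate 2 (0.0628), and stayed under it only without KO replicate 3 (0.0371), with a log2 change of -0.64 to -0.50 throughout. The 7 endothelial and stromal markers summed to 46.5 to 50.3 CPM in HSC KO and 53.4 to 67.7 CPM in HSC WT, with Cdh5 at 0 in the 3 KO libraries and at most 1.46 CPM in WT. The HSC marker list was lower as well, at 660 to 930 CPM in KO against 967 to 976 CPM in WT. The part of either list in the Abcg2 difference was not tested.

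Along WT differentiation Abcg2 fell by 1.00 ± 0.14 on the log2 scale in preMegE relative to HSC (adjusted p 4.92e-06, edgeR) and was 0.96 ± 0.14 higher in preCFU-E than in preMegE (adjusted p 1.67e-05). Levels in preCFU-E and HSC of WT mice, 71.2 ± 7.57 and 73.3 ± 5.67 CPM (SD, n = 3), did not differ beyond the error: the log2 change was -0.04 ± 0.13 (adjusted p 0.789, edgeR). HSC and preCFU-E are thus the high ends of the pattern and preMegE the low point.

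The annotated transcripts of Abcg2 start at different places. GENCODE M21 lists 13 Abcg2 transcripts, and RefSeq lists 3 start sites, at positions 58584533, 58596672 and 58640546 of chromosome 6. Of the 13 transcripts, 2 begin within 1000 bases of the first start, 2 of the second and 6 of the third, and 3 begin further inside the gene. The full-length coding transcripts are Abcg2-201 from the second start and Abcg2-202 from the third, with 16 exons each. They are 5717 and 2178 bases long, so they differ in more than their start. Start sites were not measured, and the shares of these transcripts are not a direct measure of start use. The 250 bases upstream of each RefSeq start (GRCm38.p6, plus strand) are shown because the transcripts whose shares are given next are annotated there. Capitals mark every E-box, CANNTG, which reads the same on both strands.
Abcg2, the first start, chr6:58584283-58584532: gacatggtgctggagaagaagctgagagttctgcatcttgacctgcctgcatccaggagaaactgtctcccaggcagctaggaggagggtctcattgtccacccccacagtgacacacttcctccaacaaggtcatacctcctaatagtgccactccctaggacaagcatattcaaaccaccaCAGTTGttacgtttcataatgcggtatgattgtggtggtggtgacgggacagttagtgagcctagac
Abcg2, the second start, chr6:58596422-58596671: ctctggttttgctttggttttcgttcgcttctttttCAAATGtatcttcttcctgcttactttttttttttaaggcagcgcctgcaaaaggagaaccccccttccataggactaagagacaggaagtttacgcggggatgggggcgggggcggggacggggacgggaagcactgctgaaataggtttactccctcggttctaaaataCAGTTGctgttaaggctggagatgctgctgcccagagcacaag
Abcg2, the third start, chr6:58640296-58640545: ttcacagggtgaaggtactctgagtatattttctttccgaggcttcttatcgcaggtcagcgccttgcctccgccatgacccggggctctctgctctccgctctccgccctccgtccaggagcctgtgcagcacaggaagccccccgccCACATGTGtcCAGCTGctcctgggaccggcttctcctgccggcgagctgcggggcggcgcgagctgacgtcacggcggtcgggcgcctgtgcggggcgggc

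The windows hold 1 E-box at the first start, 2 at the second and 3 at the third, where a pair of them overlap. No match to the GATA motif (AGATAA and AGATAG, and likewise TGATAA and TGATAG, on both strands) lies in any of the 3 windows. Among 32851 RefSeq promoter windows of 300 bases, 72.3% hold an E-box and 29.8% a GATA motif. RefSeq promoters matched 7 of the 9 genes, all but Abcc1 and Abcg1.

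In HSC, Abcg2-201 was 19.5%, 76.1% and 22.2% of the sum of Abcg2-201 and Abcg2-202 in KO, against 20.3%, 29.9% and 21.3% in WT. The high value belongs to KO replicate 2, the library that stood apart, and the other 5 HSC libraries lay between 19.5% and 29.9%. In preMegE the share was 9.75%, 13.9% and 16.02% in KO and 8.50%, 11.9% and 12.0% in WT. In preCFU-E it was 3.89%, 2.91% and 2.35% in KO and 5.59%, 5.74% and 4.29% in WT. Each population thus lay below the one before it in both genotypes, with no overlap between the ranges, and in preCFU-E the KO libraries lay below the WT libraries.

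All transcripts annotated at the third start together held 58.6 ± 10.3% of Abcg2's TPM in HSC KO and 74.9 ± 12.7% in HSC WT (SD, n = 3), and 96.6 ± 0.483% in preCFU-E KO and 93.9 ± 1.17% in preCFU-E WT. The test of transcript usage (edgeR's diffSpliceDGE, Simes p per gene) did not call Abcg2 in any comparison: the adjusted p was 0.763 between WT preMegE and WT HSC and 1 between WT preCFU-E and WT preMegE and in the KO comparisons. With limma on logit shares, the first of these was 0.0464. The shares rest on how Salmon divided reads among overlapping transcripts. In HSC they also rest on short transcripts. Abcg2-210, 348 bases long and placed at the second start, held 10.7%, 9.47% and 31.5% of the TPM in HSC KO. Those shares came from 13.1, 4.36 and 25.2 reads, and in HSC WT they were 0%, 3.72% and 0%. Abcg2-203, 701 bases long and placed at the third start, held 55.8% in HSC WT replicate 3.

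**Figure D3:**
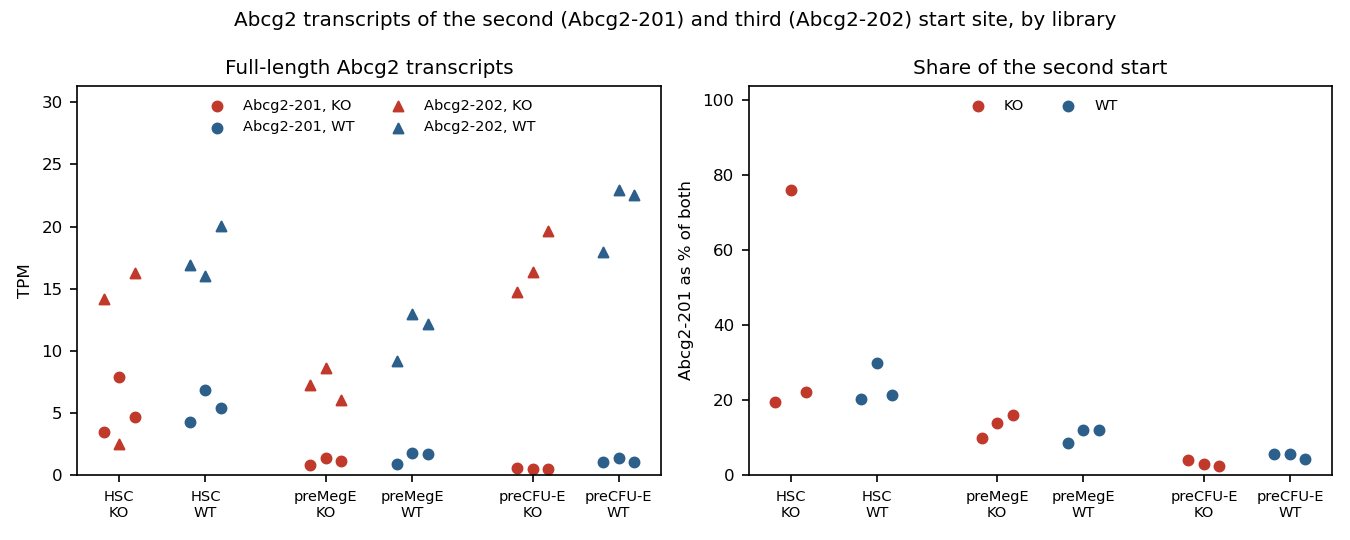
The left panel shows the TPM of the full-length transcripts Abcg2-201 and Abcg2-202 in each library, and the right panel Abcg2-201 as a percentage of their sum, with KO left of WT in each population. The share lies at 19.5% to 29.9% in 5 of 6 HSC libraries, at 76.1% in HSC KO replicate 2, and at 2.35% to 5.74% in preCFU-E.

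The P-glycoprotein genes were highest in HSC. Abcb1a (chr5:8660077-8748575, plus strand) had 5.01, 10.1 and 4.56 CPM in HSC KO and 4.35, 16.7 and 10.9 CPM in HSC WT. It had at most 0.461 CPM in preMegE KO and 0.368 CPM in preMegE WT, and no read in the 6 preCFU-E libraries. Among WT cells it fell by 5.33 ± 0.73 on the log2 scale in preMegE relative to HSC (adjusted p 1.39e-05, edgeR). With 3 reads over the group as the limit that a count of 0 allows, its level in preCFU-E was at least 108-fold lower than in HSC among KO cells and at least 209-fold lower among WT cells. Against the preMegE mean, taken as exact, the same limit gave 3.50-fold in KO and 5.13-fold in WT. That mean rested on 11.1 reads in all in KO, with 0 in replicate 1, and on 19.3 reads in WT. In KO the values thus do not bound the difference. The adjusted p of the WT step was 0.0129 (edgeR). In HSC, KO and WT levels overlapped, with a log2 change of -0.70 ± 0.58 (adjusted p 0.642, edgeR).

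Abcb1b (chr5:8798147-8866315, plus strand) fell more gradually. HSC libraries held 33.1, 27.6 and 38.5 CPM in KO and 19.9, 23.4 and 25.8 CPM in WT, and the groups did not overlap. PreMegE libraries held 15.0, 13.4 and 10.5 CPM in KO and 11.8, 15.6 and 10.5 CPM in WT. PreCFU-E libraries held 3.90, 3.54 and 4.32 CPM in KO and 2.97, 3.02 and 2.49 CPM in WT, again without overlap. The gene was thus higher in every KO library than in every WT library of HSC and of preCFU-E, but the log2 changes of 0.52 ± 0.21 and 0.47 ± 0.24 had adjusted p-values of 0.281 and 1 in edgeR's test. Among WT cells Abcb1b fell by 0.86 ± 0.22 in preMegE relative to HSC (adjusted p 0.00251, but 0.0566 with length-scaled counts) and by 2.16 ± 0.24 in preCFU-E relative to preMegE (adjusted p 5.47e-07, edgeR).

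Abcb1a and Abcb1b are neighbours with similar sequences, so reads that fit both were divided between them. Summed into 1 gene, the pair had a KO over WT log2 change of 0.23 ± 0.21 in HSC (adjusted p 0.681, edgeR), smaller than that of Abcb1b alone. The steps of the sum were -1.38 ± 0.22 for WT preMegE over WT HSC (adjusted p 3.02e-05) and -2.18 ± 0.24 for WT preCFU-E over WT preMegE (adjusted p 5.29e-07, edgeR).

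The mitochondrial and porphyrin-binding members ran the other way. Abcb10 (chr8:123952459-123983122, minus strand), with a single annotated transcript, held 14.4, 11.3 and 8.22 CPM in HSC KO and 12.7, 13.4 and 9.76 CPM in HSC WT. In preMegE it held 27.3, 36.1 and 36.2 CPM in KO and 34.1, 33.0 and 39.8 CPM in WT. In preCFU-E it held 49.5, 47.6 and 56.7 CPM in KO and 43.5, 46.1 and 51.6 CPM in WT. KO and WT overlapped in each population, with log2 changes between -0.10 and 0.12 and adjusted p-values of 0.909, 1 and 1 (edgeR). Among WT cells the gene was 2.98-fold higher in preMegE than in HSC (log2 1.57 ± 0.20, adjusted p 1.73e-06, edgeR). Between WT preCFU-E and WT preMegE the log2 change of 0.40 ± 0.19 had an adjusted p of 0.137, and 0.0376 in a fit of those populations alone (edgeR).

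Abcb6 (chr1:75171717-75180392, minus strand) was low in HSC, where the KO libraries held 6.74, 0.219 and 4.90 CPM and the WT libraries 1.79, 1.70 and 3.52 CPM. The lowest of these is again KO replicate 2, with 5 reads. With all 6 libraries the log2 change in HSC was 0.77 ± 0.57 (adjusted p 0.595, edgeR), and without KO replicate 2 it was 1.33 with an adjusted p of 0.0218. The KO effect in preMegE minus that in HSC was also called without that library, at -1.82 (adjusted p 0.0483, edgeR). PreMegE libraries held 5.96, 5.29 and 5.90 CPM in KO and 8.30, 7.48 and 8.31 CPM in WT, so that every KO library lay below every WT library. That difference, -0.49 ± 0.55 on the log2 scale, had an adjusted p of 1 in edgeR's fit. It was called in 0 of 8 alternative settings of edgeR and DESeq2, a fit of preMegE alone among them (lowest adjusted p 0.653). PreCFU-E libraries held 20.2, 20.4 and 20.4 CPM in KO and 20.3, 27.4 and 22.6 CPM in WT.

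Along WT differentiation Abcb6 was 3.45-fold higher in preMegE than in HSC (log2 1.79 ± 0.58, adjusted p 0.0146, edgeR) and 10.1-fold higher in preCFU-E than in HSC (log2 3.33 ± 0.60, adjusted p 8.33e-05). The log2 change of WT preCFU-E over WT preMegE was 1.54 ± 0.55 (adjusted p 0.0433, edgeR). That last call was lost when any of its 6 libraries was left out, with adjusted p-values of 0.0625 to 0.135, without the filter on low counts (0.191) and with the replicate block (0.0610). The first was lost without HSC WT replicate 1 (0.0546) or replicate 2 (0.0585).

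None of the multidrug resistance protein genes was called between KO and WT. Abcc1 (chr16:14361558-14475737, plus strand), the glutathione conjugate and leukotriene exporter, held 84.6 ± 5.23 CPM in HSC KO and 84.5 ± 15.5 CPM in HSC WT (SD, n = 3). It held 103.8 ± 2.49 CPM in preMegE KO and 110.8 ± 11.6 CPM in preMegE WT, and 76.1 ± 5.05 CPM in preCFU-E KO and 69.5 ± 6.66 CPM in preCFU-E WT. Ranges of KO and WT overlapped in each population, and the adjusted p-values were 0.998, 1 and 1 (edgeR). Among WT cells the gene fell by 0.67 ± 0.14 on the log2 scale in preCFU-E relative to preMegE (adjusted p 0.000893, edgeR). In preMegE relative to HSC it rose by 0.39 ± 0.14 (adjusted p 0.0230), a call that was lost with RLE size factors (0.0597), in a fit of those populations alone (0.0601), with length-scaled counts (0.608), without HSC WT replicate 1 (0.113) and without preMegE WT replicate 2 (0.103). Between WT preCFU-E and WT HSC the change of -0.28 ± 0.14 was not called (adjusted p 0.0771, edgeR). It was called with RLE size factors (0.0445), DESeq2 (0.0403), length-scaled counts (0.0358, at a log2 change of -0.57), without mitochondrially encoded genes (0.0460) and without HSC WT replicate 1 (0.0134).

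Abcc4 (chr14:118482692-118706219, minus strand), an exporter of cyclic nucleotides and nucleotide analogues, was spread widely in HSC, with 27.8, 30.6 and 52.5 CPM in KO and 34.2, 60.8 and 43.6 CPM in WT. PreMegE libraries held 31.2, 44.8 and 44.0 CPM in KO and 43.7, 58.9 and 55.1 CPM in WT. In preCFU-E, 62.7, 55.8 and 67.6 CPM in KO stood below 69.1, 81.1 and 80.6 CPM in WT without overlap. The KO over WT log2 changes were -0.32 ± 0.23, -0.39 ± 0.23 and -0.31 ± 0.23 in HSC, preMegE and preCFU-E, with adjusted p-values of 0.569, 1.00 and 1 (edgeR). WT preCFU-E stood 0.74 ± 0.23 above WT HSC (adjusted p 0.00721, edgeR), a call lost with length-scaled counts (0.0517) and without HSC WT replicate 1 (0.0552). WT preCFU-E stood 0.55 ± 0.23 above WT preMegE, which was not called (adjusted p 0.0800, edgeR) except in a fit of those populations alone (0.00787) and with the replicate block (0.0265).

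Abcc5 (chr16:20331303-20426394, minus strand), a cyclic nucleotide and heme exporter, showed no called change of its gene level in any comparison. It held 42.9, 37.9 and 27.1 CPM in HSC KO and 38.6, 29.6 and 35.6 CPM in HSC WT. In preMegE it held 46.3, 24.9 and 25.1 CPM in KO and 39.0, 35.0 and 30.4 CPM in WT. In preCFU-E it held 20.3, 18.6 and 25.4 CPM in KO and 33.5, 37.0 and 22.9 CPM in WT. These preCFU-E ranges overlapped through WT replicate 3, and the log2 change was -0.54 ± 0.24 (adjusted p 1, unadjusted p 0.0367, edgeR).

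Transcript usage could be tested for 6 of the 9 genes, and between WT preMegE and WT HSC it was called for 2 of them, Abcc5 and Abcg1, against 9.9% of 9364 genes. Abcc5-210, a noncoding transcript of 338 bases and 4 exons, stood at 0, 2.69 and 21.2 TPM in HSC KO and 5.95, 14.6 and 29.8 TPM in HSC WT. It was listed at 0 in all 12 progenitor libraries. These values rest on few reads, 0, 4.47 and 29.3 in HSC KO and 10.8, 23.8 and 45.1 in HSC WT, which a short transcript turns into a large TPM. Its share of Abcc5's TPM was 0%, 6.70% and 56.1% in HSC KO and 22.1%, 41.9% and 70.2% in HSC WT, a wide spread within each genotype. The gene's adjusted Simes p was 0.0128 (diffSpliceDGE in edgeR).

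For Abcg1, the retained-intron transcript Abcg1-202 made up 23.2%, 26.9% and 27.4% of the gene's TPM in HSC KO and 35.2%, 21.5% and 16.1% in HSC WT. In preMegE it made up 7.30%, 2.25% and 2.16% in KO and 1.76%, 1.77% and 1.73% in WT, so the HSC and preMegE ranges were far apart in both genotypes. The adjusted Simes p of Abcg1 between WT preMegE and WT HSC was 0.0387 (diffSpliceDGE in edgeR). Both calls depended on single libraries: the count of 2 was 0 without any of the 3 preMegE WT libraries, 1 without HSC WT replicate 1 or 3, and 2 without HSC WT replicate 2. In the KO comparisons 0 of 6 genes were called in HSC, preMegE and preCFU-E, where 4.34%, 0.139% and 0.235% of 9364 genes were, and between WT preCFU-E and WT preMegE 0 of 6, against 0.15%. In these 4 comparisons 0 of the 6 genes had an unadjusted p below 0.05, and limma on logit shares also called 0.

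Abcg1 (chr17:31057675-31117988, plus strand) had its peak in preMegE and its low point in preCFU-E. HSC libraries held 42.3, 43.2 and 44.1 CPM in KO and 47.3, 46.0 and 47.7 CPM in WT. PreMegE libraries held 93.1, 91.2 and 114 CPM in KO and 84.9, 91.3 and 96.0 CPM in WT. PreCFU-E libraries held 19.6, 13.8 and 12.1 CPM in KO and 8.30, 8.63 and 9.87 CPM in WT. Every KO library was thus below every WT library in HSC and above every WT library in preCFU-E, while preMegE overlapped. In HSC the log2 change was -0.12 ± 0.16 (adjusted p 0.795, edgeR). Among WT cells Abcg1 was 1.93-fold higher in preMegE than in HSC (log2 0.95 ± 0.16, adjusted p 5.16e-05, edgeR) and 10.2-fold lower in preCFU-E than in preMegE (log2 -3.35 ± 0.18, adjusted p 2.12e-11).

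The preCFU-E difference of Abcg1, 0.76 ± 0.17 on the log2 scale or 1.70-fold higher in KO, had an adjusted p of 0.0937 in edgeR's fit. It was called by DESeq2 (0.00313), without the filter on low counts (0.0480) and in a fit of the preCFU-E libraries alone (0.0435). The KO effect in preCFU-E minus that in HSC was 0.89 ± 0.23, with an adjusted p of 0.236 in edgeR and 0.0376 in DESeq2. Across the 9 genes, 0 differences of KO effects between populations were called by edgeR. At an unadjusted p below 0.05 there were 0 for preMegE against HSC, 2 for preCFU-E against HSC and 1 for preCFU-E against preMegE, where 8.15%, 7.92% and 2.62% of all genes passed. At the adjusted threshold 0.0325%, 0.051% and 0% of all genes were called. The 8 macrophage markers, a cell type that uses ABCG1, summed to 2.07 to 3.64 CPM in preCFU-E KO and 4.51 to 7.30 CPM in preCFU-E WT, with 1 to 2 of the 8 at 0 in each KO library, 0 to 1 in each WT library, and Csf1r at most 0.506 CPM in any of the 6. The markers ran against the direction of Abcg1, and their part in the result was not tested. KO replicate 1, set apart from the other preCFU-E libraries on the second principal component, held the most Abcg1 among them. Its part was not tested either.

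Levels of different genes were compared as RPKM on effective length (reads per kilobase, scaled for depth) summed over transcripts, a scale on which short transcripts weigh more. In HSC, Abcg2 led with 33.7 ± 11.2 in KO and 51.5 ± 13.0 in WT (SD, n = 3). Abcc5 followed with 28.5 ± 6.53 in KO and 30.9 ± 7.80 in WT, and Abcc1 with 27.3 ± 6.50 in KO and 29.4 ± 11.6 in WT. These neighbours did not differ beyond their spread in KO cells. Abcc5-210, a transcript of 338 bases, held 0% to 56.1% of the TPM of Abcc5 in HSC KO and 22.1% to 70.2% in HSC WT. Abcg2-203, a retained-intron transcript of 701 bases, held 7.15% to 16.9% of the TPM of Abcg2 in HSC KO and 6.01% to 55.8% in HSC WT. On CPM, which is not divided by length, Abcc5 averaged 36.0 in HSC KO and 34.6 in HSC WT, below Abcc1 (84.6 in KO and 84.5 in WT) and Abcg1 (43.2 in KO and 47.0 in WT), and within the spread of Abcc4 (37.0 ± 13.5 in KO and 46.2 ± 13.5 in WT). Abcg2 averaged 48.7 CPM in HSC KO, below Abcc1, and 73.3 CPM in HSC WT, within the spread of Abcc1 (84.5 ± 15.5). In RPKM, Abcg1 stood at 18.5 ± 1.02 in KO and 19.7 ± 1.95 in WT, above Abcc4 and Abcb1b, and Abcb10, Abcb1a and Abcb6 lay at or below 3.45 in both genotypes.

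In preMegE the lead passed to Abcg1, with 31.2 ± 3.10 in KO and 28.0 ± 1.93 in WT, and to Abcc1, with 24.1 ± 0.813 in KO and 27.2 ± 2.72 in WT, which did not differ beyond their spread in WT. In preCFU-E Abcg2 led again, with 34.4 ± 5.36 in KO and 44.2 ± 4.13 in WT. A close set followed there: Abcc1 at 18.2 ± 0.941 in KO and 16.6 ± 1.12 in WT, Abcb10 at 13.7 ± 1.49 in KO and 12.8 ± 1.20 in WT, Abcc4 at 12.6 ± 1.40 in KO and 14.5 ± 1.50 in WT, and Abcc5 at 10.2 ± 0.567 in KO and 15.0 ± 5.87 in WT. Abcc4 and Abcb10 did not differ beyond their spread in either genotype. Abcg1 and Abcb1b were the lowest detected genes, at 4.46 ± 1.10 and 1.38 ± 0.078 in KO and 2.79 ± 0.242 and 0.880 ± 0.177 in WT. On CPM in preCFU-E, Abcg2 averaged 63.1 ± 6.31 in KO and 71.2 ± 7.57 in WT. Abcc1 averaged 76.1 ± 5.05 in KO and 69.5 ± 6.66 in WT, and Abcc4 62.0 ± 5.93 in KO and 76.9 ± 6.81 in WT.

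**Figure D4:**
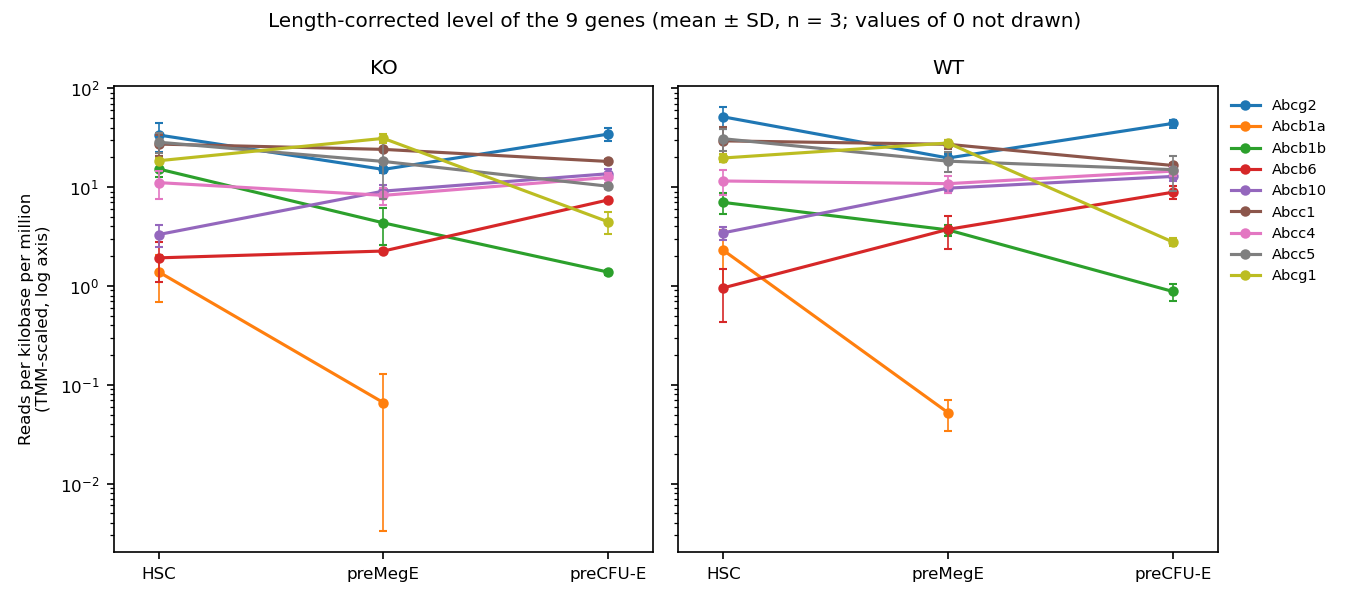
RPKM on effective length (reads per kilobase, scaled for depth), on a log axis, are drawn as the mean and SD of 3 libraries for the 9 genes along HSC, preMegE and preCFU-E, with KO in the left panel and WT in the right. In both panels Abcb10 and Abcb6 climb towards preCFU-E, Abcb1a and Abcb1b decline, and Abcg1 drops after preMegE.

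The rest of the ABC family gives the setting. Of 44 other ABC genes listed, 30 passed the filter. Between KO and WT in preMegE 0 of the 30 were called, against 0.0603% of all genes.

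In preCFU-E 1 of the 30 was called, against 0.153% of all genes. It was Abca1, which like Abcg1 exports cholesterol. Its KO libraries held 30.9, 22.7 and 27.0 CPM and its WT libraries 15.7, 12.4 and 7.74 CPM. The log2 change was 1.15 ± 0.23 (adjusted p 0.0442, edgeR). In preMegE, 71.7, 68.8 and 78.7 CPM in KO stood above 53.8, 42.3 and 28.2 CPM in WT without overlap, but were not called. The preCFU-E call of Abca1 was lost in a fit of preCFU-E alone (0.123), with the replicate block (0.0721) and without WT replicate 2 (0.254), WT replicate 3 (0.361), KO replicate 1 (0.350), KO replicate 2 (0.0678) or KO replicate 3 (0.164).

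**Figure D5:**
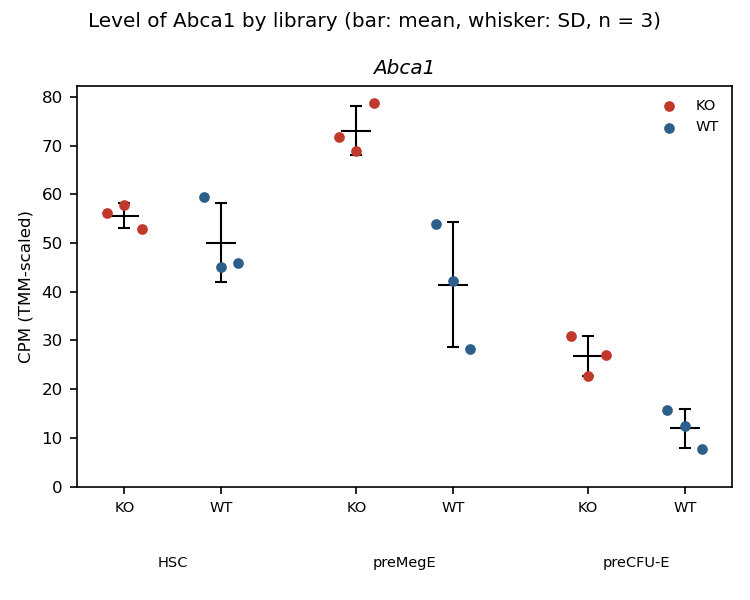
The level of Abca1 is drawn for every library in CPM on TMM-scaled library sizes, with KO left of WT and bars for the mean and SD of 3 libraries. Abca1 is higher in every KO library of preMegE and preCFU-E.

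Among sterol genes, 9 partners of ABCG1 were listed, with the liver X receptor genes, the SREBP genes and Apoe among them. Between KO and WT 0 of 9 were called in HSC and in preMegE and 1 of 9 in preCFU-E, Abca1. Over all genes 0.844%, 0.0603% and 0.153% were called there. Along WT differentiation 6 of 9 rose and 0 fell in preMegE relative to HSC, against 25.5% called higher and 28.2% lower over all genes. In preCFU-E relative to preMegE 2 rose and 3 fell, against 15.6% higher and 11.2% lower. Apoe, whose protein takes up exported cholesterol, rose at the first step by 3.12 ± 0.28 on the log2 scale (adjusted p 4.33e-08, edgeR), with 230.5, 250.1 and 335.1 CPM in preMegE WT and 29.5, 30.0 and 34.5 CPM in HSC WT. Its level fell by 1.78 ± 0.27 in WT preCFU-E relative to WT preMegE (adjusted p 4.41e-05, edgeR), a step at which Abcg1 fell too.

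Of 10 heme and iron partners of Abcb10 and Abcb6, 0 were called between KO and WT in HSC, preMegE and preCFU-E. Over all genes 0.844%, 0.0603% and 0.153% were called there. Along WT differentiation 7 rose and 2 fell in preMegE relative to HSC, where 25.5% of all genes were called higher and 28.2% lower. In preCFU-E relative to preMegE 8 rose and 0 fell, against 15.6% higher and 11.2% lower over all genes. In preCFU-E relative to HSC 8 rose and 1 fell, against 29.6% higher and 41.8% lower. The medians were 1.21, 1.04 and 2.39 on the log2 scale, against -0.43, -0.18 and -0.88 over all genes. Fech, which inserts iron into protoporphyrin, rose by 2.01 ± 0.19 in WT preCFU-E relative to WT preMegE (adjusted p 1.01e-07, edgeR), with 118.7, 146.9 and 150.7 CPM in preCFU-E and 28.0, 40.4 and 34.7 CPM in preMegE. The gene that fell against HSC was Alas2, the erythroid enzyme that starts heme synthesis, which was low throughout, at 0.636 CPM in preCFU-E WT and 3.12 CPM in HSC WT on average.

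Over the 30 other ABC genes, 10 rose and 9 fell in WT preMegE relative to WT HSC, where 53.7% of all genes were called. In WT preCFU-E relative to WT preMegE 9 rose and 5 fell, against 26.8% of all genes called. In WT preCFU-E relative to WT HSC 12 rose and 14 fell, against 71.4%. The ABCE and ABCF proteins act on ribosomes and carry nothing across membranes. Of their genes 4 of 4, 3 of 4 and 4 of 4 were called higher at these steps, against 25.5%, 15.6% and 29.6% of all genes. Abcg3, a relative of Abcg2, did not return in preCFU-E, with 0.156, 0.156 and 0.213 CPM in preCFU-E WT, 0.242, 0.294 and 0.471 CPM in preMegE WT and 48.0, 29.9 and 37.7 CPM in HSC WT. Its log2 change of WT preMegE over WT HSC was -6.84 ± 0.47 (adjusted p 4.66e-10, edgeR). Abcg4, the closest relative of Abcg1, was high where Abcg1 was low: 20.8, 24.6 and 25.6 CPM in preCFU-E WT, 1.13, 0.477 and 0.753 CPM in preMegE WT, and 0, 0 and 0.403 CPM in HSC WT. The log2 change of Abcg4 in WT preCFU-E over WT preMegE was 4.90 ± 0.77 (adjusted p 8.73e-05, edgeR). Abca3 also rose at that step, by 2.35 ± 0.19 (adjusted p 6.08e-09), and Abca5 fell by 2.90 ± 0.29 in WT preMegE relative to WT HSC (adjusted p 7.96e-08, edgeR).

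The genes whose pattern over the 18 libraries was most like that of Abcg2 were found by the root mean square difference of centred log2 CPM among 10656 genes. They were Guf1 (0.207), Myef2 (0.214), 4930503L19Rik (0.236), C530008M17Rik (0.237) and Shank3 (0.257). For example, Guf1 averaged 41.3 CPM in HSC KO and 57.2 CPM in HSC WT, 26.1 CPM in preMegE KO and 32.1 CPM in preMegE WT, and 57.0 CPM in preCFU-E KO and 61.5 CPM in preCFU-E WT, a valley in preMegE as for Abcg2. Among the closest to Abcb10 were Poldip3 (0.147), Ppp1r15b (0.149), Cuedc2 (0.155) and Vps72 (0.168). Poldip3 averaged 46.0 CPM in HSC KO and 47.6 CPM in HSC WT, and 184.5 CPM in preCFU-E KO and 173.6 CPM in preCFU-E WT.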

How the data were processed

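RNA of 18 libraries was sequenced after amplification with a NuGEN Ovation kit, per the labels' protocols, which do not say that strand was kept, so overlapping and antisense genes were not told apart. The authors' deposited tables give estimated counts and TPM per transcript. Salmon 0.12.0 and the mm10 and GRCm38.p6 builds are named in the submitters' processing notes, while the sources used here do not give the index or its settings. Here, 136176 of 136288 transcripts were matched by ID to GENCODE M21 (GRCm38), 99.2% of them at the same length, and unmatched ones held at most 0.084% of reads. Estimated counts were summed to 53458 genes and rounded for testing.

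edgeR 4.0.16 (R 4.3.3) was used for a quasi-likelihood fit of 6 group means with TMM factors, filterByExpr and 12 residual degrees of freedom, with Benjamini-Hochberg adjustment over 21565 genes and a threshold of 0.05. CPM use TMM-scaled totals. The SE of a log2 change was derived as its absolute value over the square root of the test's F statistic. Transcript usage was tested with diffSpliceDGE on transcripts with a share of 5% or more of the gene. P-values measure only the spread between these libraries. Alternatives were DESeq2 1.42.0, RLE factors, no low-count filter, length-scaled counts, fits of the compared populations alone, leaving out mitochondrially encoded genes or each replicate, a replicate block, summing Abcb1a and Abcb1b, and limma 3.58.1 on logit shares. The fits were tried on simulated data for KO against WT in preCFU-E only, with the same spread in all groups. Unequal spread between populations and the other comparisons were not covered. Promoters are RefSeq's.

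The genes and lists were chosen with earlier results of these data known. All 9 genes are named, with other listed genes called between KO and WT, for each WT step the 3 called genes of largest change whose mean log2 CPM reached 2, and the 5 genes most like Abcg2 and Abcb10. Alas2, Cdh5, Csf1r and the transcripts of Abcc5 and Abcg1 were singled out after their values were seen. Some genes that these rules name are not reported here.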

Additional observations from a re-analysis of the deposited data

How the results depend on the processing

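Of 1437 values of single genes under alternatives, 39 lost a call, 14 gained one and 4 reversed. The other 1380 kept their side of the threshold, and 53 of them, in 20 pairs of gene and comparison, were uncalled values that changed sign by a shift smaller than their SE. The reversals were Abcc1 for KO over WT in HSC (-0.16) and Abcc5 for WT preMegE over WT HSC (-0.49), both with length-scaled counts, and the difference of KO effects between preMegE and HSC for Abcb1a without preMegE KO replicate 2 (-0.72, in a range of -0.72 to 0.92 over left-out replicates) and for Abcc4 without HSC KO replicate 3 (0.27, in a range of -0.32 to 0.27). None of these was called, and the cause was not tested. The 1 gene called between KO and WT in HSC became 0 with RLE factors, no filter, HSC alone, length-scaled counts and the replicate block, and 0 to 1 when a replicate was left out; without HSC KO replicate 2 the gene called was Abcb6. The 0 called in preCFU-E became 1, Abcg1, with no filter, DESeq2 and preCFU-E alone. Differences of KO effects went from 0 to 1 for preCFU-E against HSC with DESeq2 and were 0 to 1 for preMegE against HSC when a replicate was left out. The 2 genes with changed transcript usage between WT preMegE and WT HSC became 1 in those populations alone and with the block, and 0 to 2 when a replicate was left out.

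Same-numbered libraries were not shown to be paired: correlations of their deviations were -0.01 in HSC for each number, 0.02 to 0.22 in preMegE and -0.11 to 0.09 in preCFU-E. With the replicate block, 94 genes instead of 182 were called in HSC. Over all genes the HSC count was 5 in HSC alone, 360 with no filter and 666 with DESeq2, and 89 to 595 when a replicate was left out. The preMegE count of 13 was 36, 27 and 60 under the same settings and 7 with length-scaled counts, and the preCFU-E count of 33 was 252, 54, 78 and 15. Few reads of Abcb1a in progenitors and of Abcb6 in HSC limit their values.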
